A study of Mus musculus with 6 samples.

Results

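Atf4, which encodes the transcription factor ATF4, and 9 genes known as parts or targets of its program (Atf5, Ddit3, Trib3, Chac1, Asns, Psat1, Phgdh, Shmt2 and Mthfd2) were followed in mouse embryonic fibroblasts (MEFs), connective tissue cells grown from mouse embryos. They are 10 of the 56953 genes of the deposited table and were chosen by name, through the GENCODE mouse annotation of their Ensembl identifiers. All 10 passed the filter on low values, for which a gene needed 10 or more normalized counts in no fewer than 3 libraries. A second identifier that also carries the symbol Ddit3 was listed at 0 in all 6 libraries and was not used.

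The study compared MEFs labelled WT with MEFs labelled GαqKO, 3 bulk RNA sequencing libraries each. The knockout cells lack both Gαq and its close relative Gα11 according to the methods of the study, where the line is named GαqKO, and Gαq is the subunit that links many membrane receptors to phospholipase C. Both kinds of MEF were grown in the same serum-containing medium with antibiotics, no treatment or time point separates the groups, and the number of embryos or clones behind each genotype is not given in the sources used here. Values are normalized counts, that is, gene counts divided by 1 size factor per library, and they summed to between 11392429 and 11483486 per library. Differences are given on the log2(normalized count + 1) scale with their standard error (SE) and with the p of limma after Benjamini-Hochberg adjustment over the 14096 genes that passed the filter.

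As a check of the labels, Gnaq transcripts were not lower in the libraries labelled GαqKO (1691 ± 48.5 in WT and 1926 ± 36.0 in GαqKO, SD, n = 3 each), whereas Gna11 transcripts fell from 2148 ± 29.0 to 451.6 ± 28.7. The lesion of the Gnaq allele is not given in the sources used here, so Gnaq counts over the whole gene do not test the deletion. The study reports a lack of Gαq protein in its knockout cells by Western blot and immunofluorescence. Every direction below is that of the libraries labelled GαqKO. The lines also differed in other respects. All 4 of 4 Y-linked genes examined were detected in every WT library and at 0 in every library labelled GαqKO, and the summed level of 7 epithelial markers was 515 to 544 in WT against 10.1 to 23.1 in GαqKO, with Cdh1 and Krt14 present in WT and Krt5 at or near 0 in all. Of 9 fibroblast markers 4 were higher and 5 lower in GαqKO, with Pdgfra (17.5 to 21.9 in WT) and Thy1 (0 to 2.09 in WT) far higher in GαqKO and Col1a1 (log2 difference -1.53), Fn1 (-0.73), Col1a2 (-0.36), Vim (-0.32) and Col3a1 (-0.18) lower. Endothelial markers summed to between 12.6 and 25.4 in every library. Of the leukocyte markers Cd3e and Ptprc were at or near 0, while Cd68 was 84.6 to 104 in WT and lower in GαqKO (log2 difference -0.48, adjusted p = 0.0296, limma), and of the muscle and neural markers Tubb3 was lower in GαqKO while Myod1 and Myog were at or near 0. The part of these differences in the results below was not tested, genotype and origin of the cells cannot be told apart, and in bulk RNA fewer cells of a type cannot be told apart from less RNA per cell.

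The integrated stress response is the pathway through which cells slow protein synthesis under amino acid shortage, unfolded proteins in the endoplasmic reticulum (ER), haem shortage, viral RNA or mitochondrial damage. Its kinases phosphorylate the α subunit of the initiation factor eIF2, which lowers general translation but favours translation of the Atf4 mRNA through upstream reading frames. ATF4 protein then raises transcription of genes for amino acid synthesis and uptake, redox balance and feedback control, so that Atf4 mRNA alone does not report how much ATF4 protein a cell holds.

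ATF4 binds as a dimer with C/EBP family proteins to a composite element whose core was searched as TGATGNAA on both strands, in the windows from 250 bases before to 50 bases after the RefSeq start of each gene. This core lay in a window of 3 of the 10 genes (30%), against 4.51% of the 27025 genes with a window and 2.70% of the 9794 of them that were tested. A gene with several starts has several windows. Of 23 other known ATF4 targets with a window, 7 held it (30.4%). Among the 10 genes, the 3 with the core were Chac1, Trib3 and Asns, and their matches are shown. None of these genes was among those that were higher in GαqKO. Each stretch of 30 bases is read 5′ to 3′ so that the element, in capitals, runs in its TGATGNAA direction.
Chac1: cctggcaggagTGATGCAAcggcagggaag
Trib3: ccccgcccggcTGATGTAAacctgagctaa
Asns: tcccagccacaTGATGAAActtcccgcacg
On GRCm39 these stretches lie at chr2:119181519-119181548 (Chac1), chr2:152185948-152185977 (Trib3) and chr6:7693214-7693243 (Asns). The Chac1 match is on the strand opposite to the gene, 193 bases before the start, and that of Asns is on the strand of the gene, 23 bases before the start. The Trib3 match, also on the opposite strand, begins 14 bases after the start. The letters are a description of these windows and are not evidence of binding, and the absence of the core from the windows of the other 7 genes says only that these letters do not occur there.

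The 10 genes did not move as a group. In the libraries labelled GαqKO, 6 of 10 were higher (Atf4, Atf5, Ddit3, Psat1, Phgdh and Mthfd2) and 2 were lower (Chac1 and Asns), and the remaining 2 (Trib3 and Shmt2) did not pass the test. Over all genes tested, 31.8% were higher and 34.1% lower at the same threshold, an adjusted p under 0.05. Atf5 was the single gene that also exceeded a log2 fold change of 1 (10.2% of all genes did so), and Chac1 the single gene beyond -1 (10.5% of all genes). The groups did not overlap for 8 of the 10, beside 69.6% of all genes. The median difference was 0.27 over the 10 genes and -0.01 over all genes tested. None of the 3 genes with the core element in its window was higher, since Chac1 and Asns were lower and Trib3 did not pass the test, whereas 6 of the 7 without it were higher and the other was Shmt2. Among the 23 other targets with a window, the 7 with the core were 2 higher, 2 lower, 2 that did not pass and 1 below the filter, and the 16 without it were 3 higher, 5 lower, 4 that did not pass and 4 below the filter, so that the split seen in the 10 genes was not seen there.

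**Figure D1:**
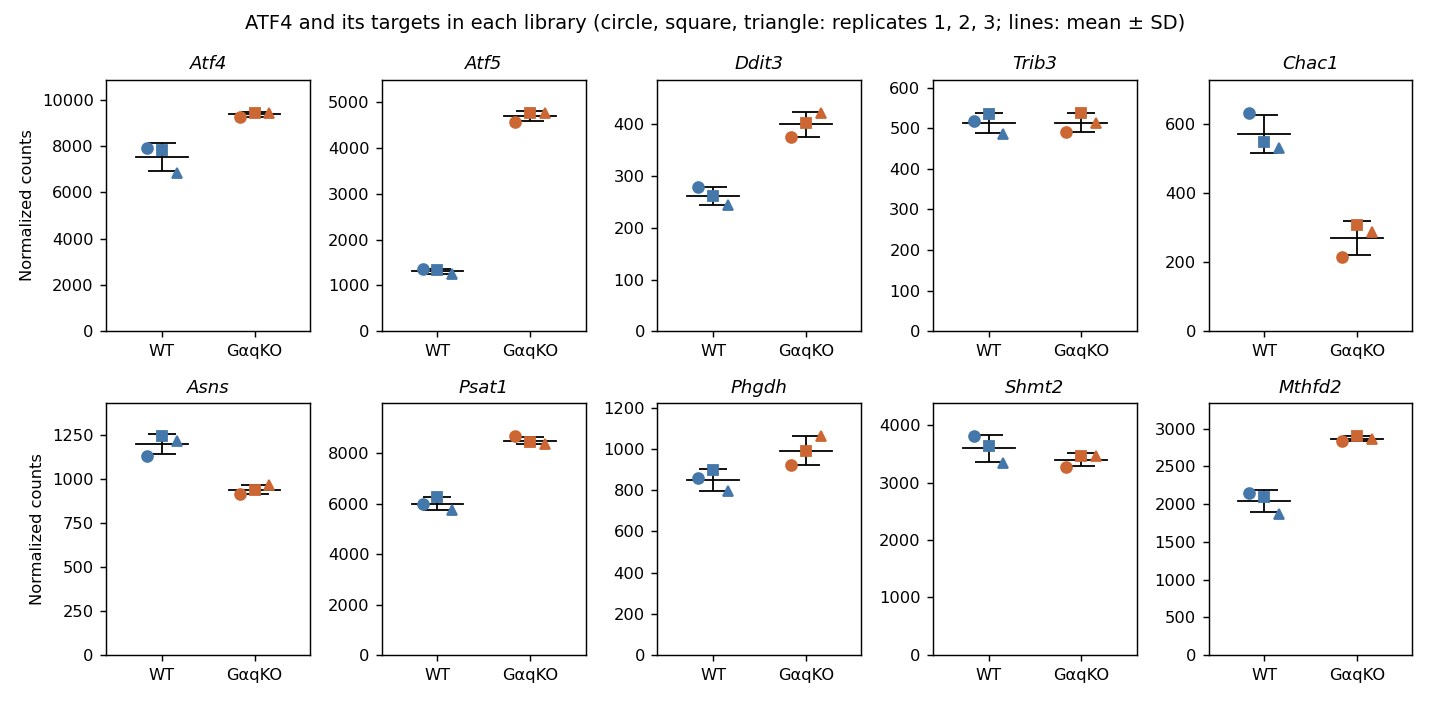
Normalized counts of Atf4 and 9 targets in each library, on linear axes that start at 0, with circles, squares and triangles for replicates 1, 2 and 3 and black lines for the mean ± SD of each group. Atf5 was between 1251 and 1355 in WT and between 4562 and 4770 in GαqKO, Chac1 and Asns were lower in every library labelled GαqKO, and the groups overlap for Trib3 and Shmt2.

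Atf4 itself (ENSMUSG00000042406.9, chr15:80139372-80141745, plus strand) was the most abundant of the 10 per kilobase of exon, at 3173 normalized counts per kilobase in WT. Its normalized counts were 7917, 7842 and 6837 in WT replicates 1, 2 and 3 and 9264, 9449 and 9457 in GαqKO replicates 1, 2 and 3. Every library labelled GαqKO was above every WT library, and WT replicate 3 was lower than the other WT libraries. The mean rose from 7532 ± 603 to 9390 ± 109 (SD, n = 3 each), a difference of 0.32 on the log2 scale (SE 0.053, adjusted p = 1.12e-04, limma). This difference is small beside those of other genes in these libraries, since 57.5% of the genes tested changed by a larger amount.

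Atf5 (ENSMUSG00000038539.16, chr7:44461680-44466082, minus strand) encodes a close relative of ATF4 whose mRNA is likewise translated preferentially when eIF2 is phosphorylated and which is known for its role in the mitochondrial stress response. It had 1355, 1333 and 1251 normalized counts in the WT libraries and 4562, 4750 and 4770 in those labelled GαqKO. The groups were far apart and the spread within each was small. The mean rose from 1313 ± 54.9 to 4694 ± 115, which is 3.57 times as high, with a log2 difference of 1.84 (SE 0.046, adjusted p = 7.75e-13, limma). Leaving out any one library kept the difference between 1.80 and 1.86. Of the genes tested, 11.1% changed by more. Atf5 is annotated beside and partly within Nup62 and Il4i1, whose spans cover 16.5% of its exon bases. Nup62 was at or near 0 in all libraries and Il4i1 was between 18.5 and 35.6. Genes such as Chac2 and Eif2s2, whose exons lie inside other annotated genes, were also listed at 0. These counts therefore cannot show whether the overlap affected the reads of Atf5, which was not tested.

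Ddit3 (ENSMUSG00000025408.16, chr10:127124268-127132163, plus strand) encodes CHOP, a C/EBP family factor induced by ATF4 that promotes cell death under prolonged ER stress. Its normalized counts were 280, 261 and 244 in WT and 376, 402 and 423 in GαqKO. The lowest library labelled GαqKO lay above the highest WT library. Ddit3 rose from 262 ± 17.8 to 400.3 ± 23.7, a log2 difference of 0.61 (SE 0.085, adjusted p = 2.50e-05, limma). Its exon bases lie entirely (100%) within the annotated spans of other genes, among them Mars1 and Mbd6. Reads of Ddit3 could thus be shared or left uncounted, which was not tested. Mars1, a tRNA synthetase gene, was 817 ± 47.8 in WT and 861 ± 26.3 in GαqKO and did not pass the test (adjusted p = 0.267, limma), while Mbd6 fell by 0.48 on the log2 scale.

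Chac1 and Trib3 are among the feedback and effector genes of the program. Chac1 (ENSMUSG00000027313.4, chr2:119180757-119184866, plus strand) encodes a γ-glutamylcyclotransferase that degrades glutathione and is often used as a readout of ATF4 activity. It had 633, 549 and 530.3 normalized counts in WT and 215, 306 and 288 in GαqKO, so that all libraries labelled GαqKO were well below all WT libraries. Its mean fell from 571 ± 54.6 to 270 ± 48.3, a log2 difference of -1.09 (SE 0.118, adjusted p = 2.17e-06, limma). GαqKO replicate 1 was the lowest, and without it the difference was -0.94, short of the fold threshold. Ggct, whose protein also acts on γ-glutamyl peptides, fell as well, from 116 ± 6.89 to 54.4 ± 5.65 (log2 difference -1.08, adjusted p = 3.78e-05, limma), and Chac2 was listed at 0 in all libraries, as were Oat and Asnsd1, and nearly all exon bases of these genes lie inside other annotated genes.

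Trib3 (ENSMUSG00000032715.10, chr2:152179337-152191958, minus strand) encodes a pseudokinase that binds ATF4 and CHOP and restrains them. Its normalized counts were 518, 536 and 487 in WT and 490.2, 539 and 514 in GαqKO. The groups overlapped fully, and the difference was 0.0019 on the log2 scale (SE 0.068, adjusted p = 0.982, limma) with a 95% interval from -0.15 to 0.15. Trib3 thus showed no difference beyond its spread in libraries where Atf4, Atf5 and Ddit3 were higher. In the same family Trib1 did not pass the test (log2 difference 0.05, adjusted p = 0.451, limma), whereas Trib2 rose from 62.6 ± 16.4 to 1959 ± 51.2 (log2 difference 4.98, adjusted p = 2.88e-12, limma), with 38.9% of its exon bases inside other genes.

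**Figure D2:**
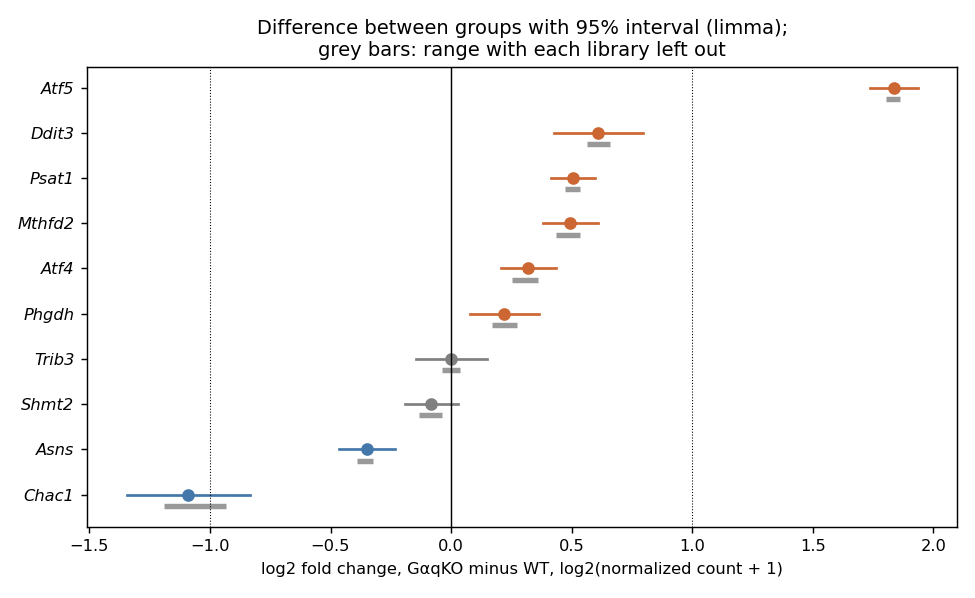
Log2 fold change of each gene, GαqKO minus WT, as points with 95% intervals from limma, in orange for higher, blue for lower and grey for genes that did not pass the test. The grey bar under each point spans the values with each library left out in turn, and dotted lines mark -1 and 1. The 10 genes run from Chac1 at -1.09 to Atf5 at 1.84, and the bars of Trib3 cross 0.

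The 5 metabolic enzymes also moved in both directions. Asns (ENSMUSG00000029752.13, chr6:7671667-7728461, minus strand) encodes asparagine synthetase. Its normalized counts were 1132, 1241 and 1214 in WT and 914, 934 and 964 in GαqKO. Every library labelled GαqKO was below every WT library. The mean fell from 1196 ± 57.1 to 937 ± 25.2, a log2 difference of -0.35 (SE 0.054, adjusted p = 5.90e-05, limma).

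Phgdh and Psat1 encode the first and second enzymes of serine synthesis from glycolytic intermediates. Psat1 (ENSMUSG00000024640.10, chr19:15882039-15924701, minus strand) had 5997, 6252 and 5746 normalized counts in WT and 8681, 8451 and 8393 in GαqKO. It rose from 5998 ± 253 to 8508 ± 153, a log2 difference of 0.50 (SE 0.042, adjusted p = 1.54e-07, limma), and the groups were clearly separate. Phgdh (ENSMUSG00000053398.12, chr3:98220484-98255047, minus strand) had 859, 900 and 794 normalized counts in WT and 923, 992 and 1062 in GαqKO. Its groups lay close together without overlapping, and the mean rose from 851 ± 53.3 to 993 ± 69.7, a log2 difference of 0.22 (SE 0.066, adjusted p = 0.00904, limma). In limma this call was lost without GαqKO replicate 3 (adjusted p = 0.0551), but it was kept with edgeR on 5 libraries that also lack this replicate. Copies elsewhere in the genome at 95% identity or more cover 96.6% of the Phgdh transcript. The annotated genes at those places summed to only 31.0 to 58.5 normalized counts per library. Psph, the last enzyme of the route, rose by 0.17 (adjusted p = 0.0348, limma), from 628 ± 42.8 to 704 ± 13.6.

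Shmt2 and Mthfd2 encode successive enzymes of mitochondrial one-carbon metabolism, which splits serine and passes its carbon on to folate. Shmt2 (ENSMUSG00000025403.6, chr10:127352266-127358323, minus strand) had 3807, 3645 and 3345 normalized counts in WT and 3272, 3464 and 3459 in GαqKO. These groups overlapped, and the difference of -0.08 (SE 0.051, adjusted p = 0.178, limma; 95% interval -0.19 to 0.03) did not pass the test. Without WT replicate 3, the lowest WT library, the difference was -0.13 and passed the test (adjusted p = 0.0129, limma). Mthfd2 (ENSMUSG00000005667.9, chr6:83282673-83302890, minus strand) had 2147, 2098 and 1868 normalized counts in WT and 2832, 2900 and 2867 in GαqKO. It rose from 2038 ± 149 to 2866 ± 33.9 with no overlap, a log2 difference of 0.49 (SE 0.053, adjusted p = 1.86e-06, limma). The 95% interval of Mthfd2, 0.38 to 0.61, does not meet that of Shmt2, although the difference between these genes was not itself tested.

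Per kilobase of exon, and in the WT libraries, the order of levels after Atf4 was Psat1 (1019 normalized counts per kilobase), Shmt2 (876), Atf5 (610), Mthfd2 (557), Phgdh (301), Chac1 (220), Trib3 (152), Asns (102) and Ddit3 (46.9). In the libraries labelled GαqKO, Atf5 at 2181 per kilobase stood second after Atf4 at 3955, above Psat1 at 1446. Chac1 at 104 per kilobase stood below Trib3 at 152. Exon lengths here cover all annotated transcripts of a gene, so these levels understate genes with many alternative exons. The order of genes depends on this choice. For Psat1 the exon length is 5885 bases and the canonical transcript 2620 bases, against 2152 and 1816 bases for Atf5. By the length of the canonical transcript, Psat1 would stand above Atf5 in the libraries labelled GαqKO.

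Within groups, the 10 genes tended to be low in the same library. WT replicate 3 was the lowest WT library for 9 of 10 (Asns was the exception), beside 36.5% of all genes tested, and GαqKO replicate 1 was the lowest of its group for 9 of 10 (Psat1 was the exception), beside 31.9% of all genes. The summed normalized counts of the 10 genes were 24645, 24658 and 22315 in WT replicates 1, 2 and 3 and 31529, 32187 and 32197 in the GαqKO replicates. The median gene was 0.15 log2 units below the mean of the other WT libraries in WT replicate 3 and 0.07 below in GαqKO replicate 1. Among 20 cytosolic aminoacyl-tRNA synthetase genes, which supply charged tRNAs and include known ATF4 targets, WT replicate 3 was the lowest for 15 but GαqKO replicate 1 for 3. For 25 other ATF4 targets these libraries were the lowest for 7 and 6. These counts are descriptive, as the 10 genes of a library share its culture and preparation, and their source was not tested.

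**Figure D3:**
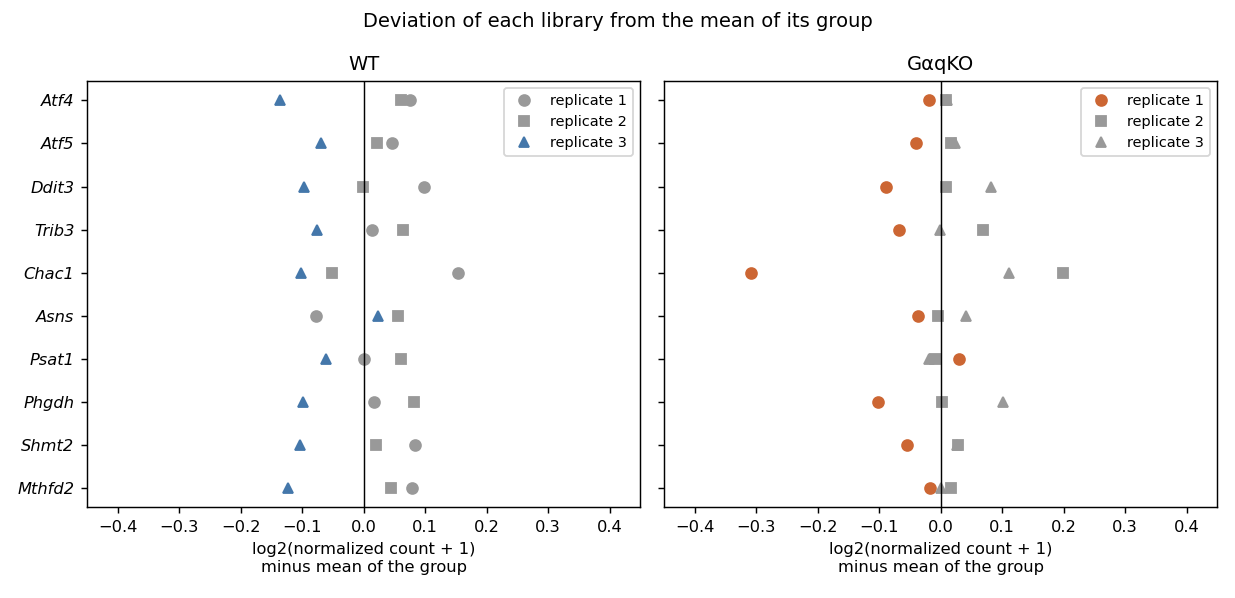
Log2(normalized count + 1) of each gene in each library minus the mean of its group, WT on the left and GαqKO on the right, with circles, squares and triangles for replicates 1, 2 and 3. The coloured symbols are WT replicate 3 and GαqKO replicate 1, each the lowest of its group for 9 of 10 genes, with Chac1 in GαqKO replicate 1 the farthest below its mean.

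Upstream of Atf4, the 4 genes for eIF2α kinases were all lower in GαqKO (median log2 difference -0.33), beside 34.1% of all genes. Eif2ak4, which encodes the amino acid sensor GCN2, had 441, 460.5 and 411 normalized counts in WT and 282, 240.5 and 291 in GαqKO. It fell from 437 ± 24.8 to 271 ± 26.9, a log2 difference of -0.69 (SE 0.090, adjusted p = 1.30e-05, limma). Eif2ak1, which encodes the haem-regulated kinase HRI, fell from 755 ± 10.5 to 596 ± 26.0 (log2 difference -0.34, adjusted p = 1.71e-04, limma), with 53.5% of its exon bases inside neighbouring genes. The other kinases changed less firmly. Eif2ak3, for the ER kinase PERK, differed by -0.32 (adjusted p = 0.0175, limma), and this call was lost without WT replicate 2 (adjusted p = 0.0590) or GαqKO replicate 1 (adjusted p = 0.0928). Eif2ak2, for the RNA-sensing kinase PKR, differed by -0.19 (adjusted p = 0.0159, limma), and this call was lost without WT replicate 3 (adjusted p = 0.0645) or GαqKO replicate 1 (adjusted p = 0.0737).

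Of 6 genes whose products regulate these kinases or relay signals to them, 2 were higher, 3 lower and 1 did not pass. Over all genes, 31.8% were higher and 34.1% lower. Both listed genes of the mitochondrial relay that reaches HRI were higher. The protease gene Oma1 rose from 158 ± 17.6 to 255 ± 14.3 (log2 difference 0.69, adjusted p = 8.86e-05, limma). Dele1, whose product OMA1 cleaves, rose by 0.41 (adjusted p = 1.07e-04, limma). Both regulators of GCN2 were lower. Gcn1, the GCN2 activator, fell by 0.43 on the log2 scale (adjusted p = 6.28e-05, limma), and Impact, which competes with GCN2 for GCN1, fell from 2000 ± 96.8 to 1230 ± 7.79 (log2 difference -0.70, adjusted p = 2.22e-08, limma). Dnajc3, which encodes the kinase inhibitor P58IPK, fell by 0.59 on the log2 scale (adjusted p = 3.99e-08, limma).

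For the target of these kinases, Eif2s1 (eIF2α) differed by -0.11 and did not pass the test (adjusted p = 0.0552, limma), though it did without WT replicate 3 (adjusted p = 0.0136) or GαqKO replicate 1 (adjusted p = 0.0436). Eif2s2 (eIF2β) was listed at 0 in all 6 libraries, and its annotated exons lie inside another gene. The γ subunit is encoded on both sex chromosomes in the mouse. Eif2s3y had 668, 652 and 685 normalized counts in WT and 0 in every library labelled GαqKO, at least 223-fold lower when set against a floor of 3 counts per library. Eif2s3x was 114, 146 and 151 in WT and 209, 202 and 186 in GαqKO (log2 difference 0.55, adjusted p = 0.00188, limma). These counts of Eif2s3x were low beside those of the other subunits, and 96.0% of its transcript has a copy at the processed pseudogene Gm2223 on the X chromosome, which was named after its values were seen. Gm2223 held 3912, 4028 and 3852 normalized counts in WT and 6511, 6379 and 6629 in GαqKO. Reads of the copies cannot be told apart here, and the sum of Eif2s3x and Gm2223 was 4067 ± 93.4 in WT and 6706 ± 118 in GαqKO, 1.65 times as high. With Eif2s3y added, the sum was 4736 ± 78.4 in WT, so that the ratio of GαqKO to WT was 1.42.

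**Figure D4:**
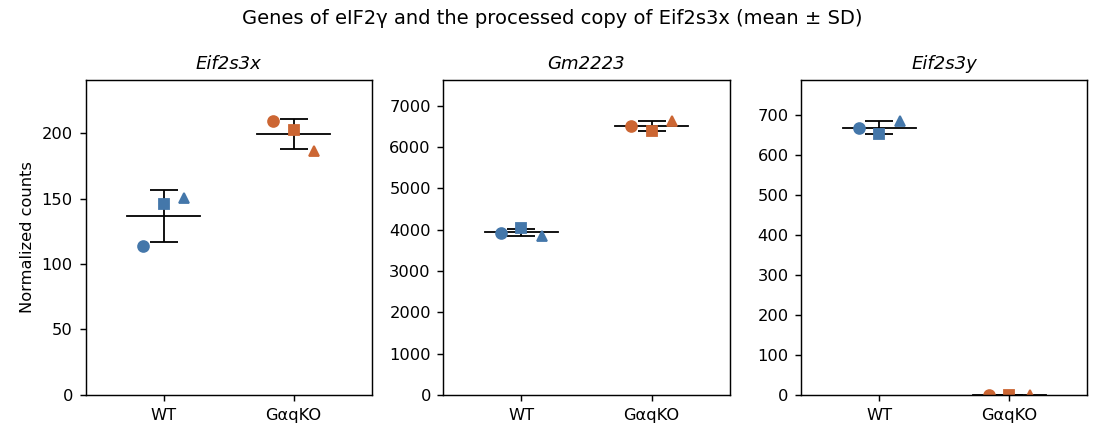
Normalized counts of Eif2s3x, its processed copy Gm2223 and Eif2s3y in each library, on linear axes that start at 0, with circles, squares and triangles for replicates 1, 2 and 3 and lines for the mean ± SD. Eif2s3y was between 652 and 685 in WT and at 0 in all GαqKO libraries, while Eif2s3x and Gm2223 were higher in GαqKO.

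On the recovery side of the pathway, the phosphatase subunits that end eIF2α phosphorylation did not pass the test. Ppp1r15a, which encodes the ATF4- and CHOP-inducible subunit GADD34, was 302 ± 31.7 in WT and 336 ± 12.5 in GαqKO (log2 difference 0.16, adjusted p = 0.139, limma), and Ppp1r15b, for the constitutive subunit, differed by -0.09 (adjusted p = 0.0883, limma). Of their catalytic partners, Ppp1cc differed by -0.44 and Ppp1ca by -0.28 on the log2 scale (adjusted p = 6.03e-05 and 5.62e-04, limma), while Ppp1cb differed by 0.10 in the other direction (adjusted p = 0.0346, limma), a call lost in several alternatives. For the guanine exchange factor eIF2B, Eif2b1 and Eif2b2 were lower (log2 differences -0.31 and -0.35, adjusted p = 0.00327 and 2.70e-04, limma) and the other 3 subunits did not pass the test.

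ATF4 acts with other bZIP factors. Of 12 listed genes for its dimer partners and for related bZIP factors, 4 were higher and 6 lower. Over all genes these shares were 31.8% and 34.1%. Cebpb, a dimer partner of ATF4, rose from 780.1 ± 53.5 to 1260 ± 39.6 (log2 difference 0.69, adjusted p = 2.05e-07, limma), with 60.4% of its exon bases inside other genes. Cebpg rose by 0.16 (adjusted p = 0.00682, limma). Of the other C/EBP genes listed, Cebpa fell from 42.3 ± 10.5 to 2.98 ± 3.65 (log2 difference -3.89, adjusted p = 6.54e-05, limma), and Cebpd did not pass the test (0.09, adjusted p = 0.588, limma). Nfe2l2, for the antioxidant factor NRF2, rose by 0.83 (adjusted p = 1.43e-08, limma). Atf3, itself an ATF4 target and a usual companion of Ddit3, was lower. It had 259, 213 and 220 normalized counts in WT and 14.1, 15.0 and 11.1 in GαqKO, a log2 difference of -4.01 (SE 0.192, adjusted p = 4.54e-10, limma). Creb3l1, for an ER membrane factor, fell from 1913 ± 43.6 to 4.79 ± 4.97 (log2 difference -8.74, adjusted p = 6.23e-10, limma), and Jdp2 fell by 0.90 (adjusted p = 1.10e-08, limma).

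Among 30 other genes known as ATF4 targets, 25 were tested. Of these, 8 rose and 9 fell in GαqKO, near the shares over all genes (31.8% higher and 34.1% lower). The median log2 difference of the 25 was -0.0038. The amino acid transporter genes Slc3a2 and Slc38a2 were higher, as were Slc7a11, the cystine carrier, from 333 ± 14.8 to 618 ± 34.8 (log2 difference 0.89, adjusted p = 1.14e-07, limma), and Slc7a5, the leucine carrier, by 0.63 (adjusted p = 1.69e-08, limma), while Slc1a4 (-0.23) and Slc1a5 (-0.26) were lower. The largest rise in the list was that of Stc2, which encodes a secreted glycoprotein, from 18.8 ± 0.944 to 1638 ± 57.9 (log2 difference 6.37, adjusted p = 1.46e-14, limma). Cth, which makes cysteine, rose from 50.9 ± 13.6 to 110 ± 14.7 (log2 difference 1.12, adjusted p = 2.60e-04, limma). Sesn2, an inhibitor of mTORC1 signalling, fell from 704 ± 2.47 to 352 ± 29.0 (adjusted p = 3.46e-08, limma), and Ndrg1 fell by 1.30 on the log2 scale (adjusted p = 7.78e-05, limma).

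Lists of enzymes that include Asns, Psat1, Phgdh, Shmt2 and Mthfd2 had shares near those of all genes (31.8% higher and 34.1% lower) or a little above. Of 20 serine, glycine and one-carbon genes tested, which include the last 4 of these, 7 were higher and 7 lower. Ahcy, which clears S-adenosylhomocysteine, fell from 1008 ± 15.0 to 388 ± 14.6 (log2 difference -1.38, adjusted p = 1.48e-10, limma), and Aldh1l2, which oxidizes formylated folate in mitochondria, fell by 0.63 (adjusted p = 3.47e-06, limma). Of 13 asparagine, proline and glutamate genes tested, Asns included, 5 were higher and 6 lower, with Gpt2 falling by 0.64, Pycr1 falling by 0.47 and Glud1 rising by 0.54 on the log2 scale. Of the 20 tRNA synthetase genes, 8 were higher and 4 lower, with Aars1 (0.63) and Kars1 (0.58) higher and Gars1 (-0.58) lower. In all, of 130 tested pathway genes other than the 10, 40 were higher and 51 lower, also near the shares over all genes.

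Genes of 2 neighbouring stress responses were counted in the same way, with 31.8% of all genes higher and 34.1% lower as the background. Of 15 genes of ER chaperones and of the IRE1 and ATF6 branches, 0 were higher and 10 lower by limma (median log2 difference -0.43), led by Ern1, which encodes IRE1α, from 865 ± 122 to 431 ± 17.9 (log2 difference -0.99, adjusted p = 2.36e-07, limma), Xbp1 (-0.96) and Pdia4 (-0.85). The count of higher ER genes was also 0 at an unadjusted p under 0.05 and with edgeR and DESeq2 on the recovered reads of 5 libraries. Of 8 mitochondrial chaperone and protease genes, 6 were higher and 1 lower (median log2 difference 0.21), with Lonp1 (0.41) and Hspa9 (0.40) higher and Yme1l1 (-0.51) lower. Atf5, the factor linked to the mitochondrial response, and Oma1 and Dele1 were higher in the same libraries, while Eif2ak1, Atf3 and Chac1 were lower. Whether these differences are linked was not tested. The exons of Xbp1 and Hspe1 lie inside other annotated genes, as do most exon bases of Hspa9, Hspa5 and Manf and 48.3% of those of Hsp90b1. The counts of these genes may therefore be shared with other genes or left out in part, which was not tested.

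**Figure D5:**
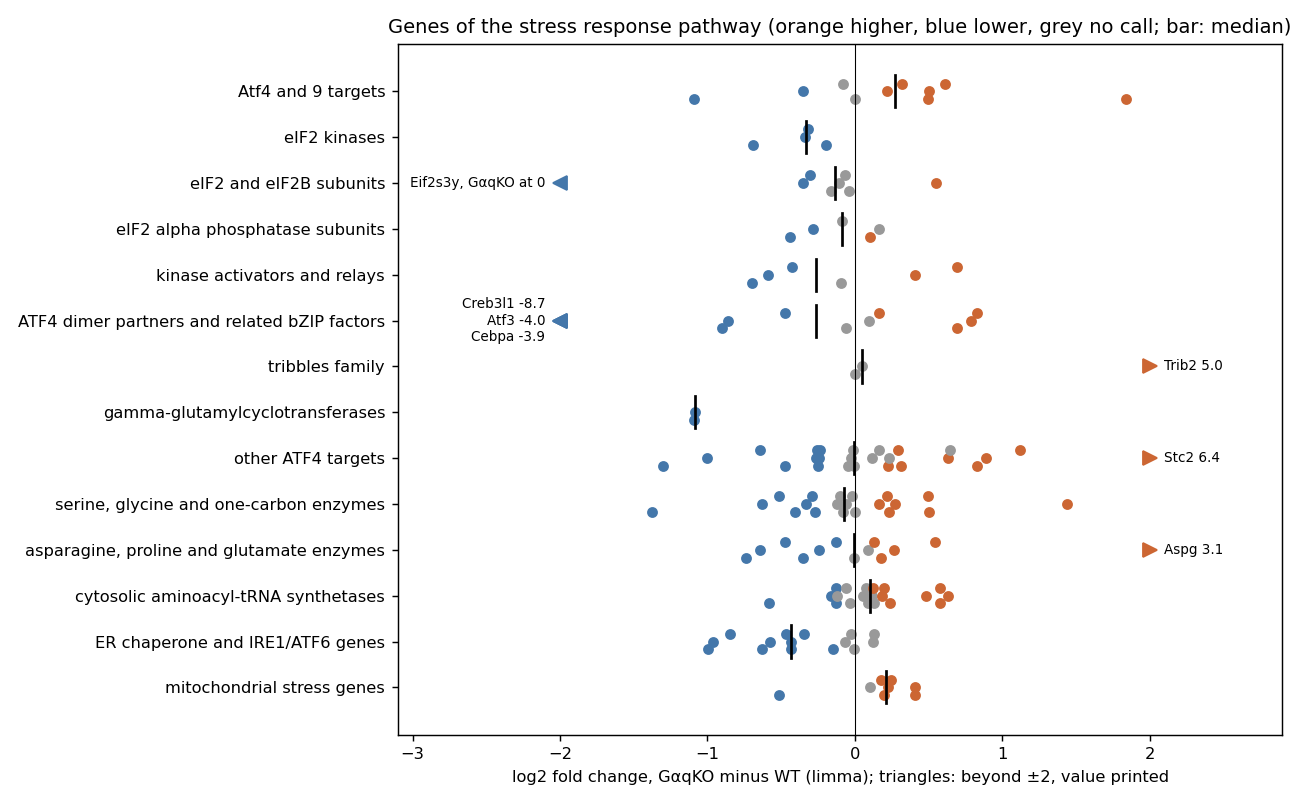
Log2 fold change, GαqKO minus WT, of each tested gene in the lists of the stress response pathway, 1 row per list, with orange for higher, blue for lower and grey for genes that did not pass the test, and a black bar at the median of the list. Triangles stand for genes beyond ±2, named with their value, or as at 0 in GαqKO for Eif2s3y, and 1 triangle stands for all such genes of a list. The 4 kinase genes lie left of 0, the 10 ER genes that passed the test are all lower, and Atf4 with its 9 targets spreads on both sides.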

How the data were processed

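The authors sequenced stranded mRNA libraries of MEFs, aligned the reads with Rbowtie2 to GRCm39, used featureCounts and GENCODE release 32 for counting and normalized them with DESeq2. The deposited values are a signal, gene counts divided by a size factor. Software versions and the strand setting are not given in the sources used here. Rbowtie2 does not split reads over introns, so genes differ in how many of their reads are counted. Symbols and coordinates came from GENCODE release 39 of the same build (98.9% of identifiers matched), and promoter windows came from the RefSeq table of GRCm38.p6, located by exact match in GRCm39. Values as log2(normalized count + 1) were fitted with limma 3.58.1 (R 4.3.3) with a trend in the prior spread.

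The 10 genes and all lists were chosen with earlier results of these data known. Genes named from a list are up to 3 with the largest change that passed the test, had a mean of at least 50 normalized counts and groups that do not overlap. Genes named outside this rule were chosen after their values were seen. Where reads could be recovered (5 libraries, all but GαqKO replicate 3, 9853000 to 12229175 reads), edgeR 4.0.16 and DESeq2 1.42.0 were run as alternatives. Floors cover counting error only. The study describes the libraries as biological replicates. In data simulated with 200 changed genes, 50 per fold size, limma recovered 50 of 50 at 1.5-fold with 8 false calls among 13900 genes. DESeq2 on 5 simulated libraries recovered 39 of 50 at that fold. Far fewer genes were changed than were called here, and none by less than 1.5-fold. The simulation thus does not cover smaller differences such as those of Atf4, Asns and Phgdh.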

Additional observations from a re-analysis of the deposited data

How the results depend on the processing

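Over 15 alternatives (scaling, filter, pseudocount, prior spread, replicate block, count tests on 5 libraries and each library left out), 735 of 760 comparisons with the values above kept their direction and their side of the threshold. Of the 10 genes, Atf4, Atf5, Ddit3, Chac1, Asns, Psat1 and Mthfd2 did so in every alternative. The number of genes beyond a log2 fold change of -1 ran from 0 (without GαqKO replicate 1) to 1 as single libraries were left out. The difference of Trib3 ran from -0.036 (without WT replicate 3) to 0.036 and was -0.032 without GαqKO replicate 2. Phgdh lost its call with no trend in the prior spread (adjusted p = 0.0550, limma) and with DESeq2 on the recovered reads (adjusted p = 0.152). It kept its call with edgeR on the same reads. These reads lack GαqKO replicate 3, without which the call was also lost in limma. The cause was not tested. Same-numbered libraries did not deviate together (correlations -0.045, -0.148 and -0.064, beside -0.075 to 0.125 for unlike numbers). This check over all genes could miss a weak shared effect, so pairing was not excluded. With the replicate block 6 of the 10 genes were higher and 2 lower, and Ppp1cb lost its call (adjusted p = 0.0739, limma).

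With 3 libraries a group and the origin of the cells tied to genotype, the spread measures these cultures alone. Atf4 is controlled largely at translation, which RNA counts do not show.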
